A study of Mus musculus with 6 samples.

Results

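The laminins, nidogens, perlecan and agrin are the non-collagen scaffold of the basement membrane, and 10 of their genes (Lama3, Lama4, Lama5, Lamb1, Lamb2, Lamc1, Nid1, Nid2, Hspg2 and Agrn) were followed here, out of 52636 gene identifiers in the deposited count table. They were taken by name, and each matched 1 row of the table. RNA sequencing was done on endothelial cells grown from mouse brain, all of which had received 4-OHT (4-hydroxytamoxifen), the agent that triggers gene deletion in this system. Before RNA isolation the living cells were sorted for CD31 and VE-cadherin on their surface and for the absence of the leukocyte protein CD45. The 3 control libraries came from cells with the genotype Wild Type Control, and the 3 others from cells with the genotype Erg and Fli1 double knockout, below simply knockout. ERG and FLI1 are related transcription factors of the ETS family that are active in endothelium, and the study is about their joint role in keeping the endothelial fate of adult cells. The Cre line, the mouse strain, the age of the animals and whether the replicates are separate cultures or animals are not stated in the labels. By transcripts named below, each group holds libraries of male and of female cells, so not all libraries of a group come from the same animal. Libraries of the same sex within a group may still be technical repeats. The p-values here therefore reflect only how much these libraries vary, which may be technical in part.

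Endothelial cells rest on a basement membrane, a thin sheet of secreted matrix that they build together with neighbouring cells. Laminins are its first layer. Each laminin is a trimer of an alpha, a beta and a gamma chain. The alpha chain carries the domains that bind integrins and dystroglycan on the cell. In blood vessels the main alpha chains are alpha 4 and alpha 5, and in brain vessels these laminins are part of the blood-brain barrier. Nidogens bind the laminin gamma 1 chain on one side and collagen IV on the other, and so link the laminin and collagen networks. Perlecan (Hspg2) and agrin (Agrn) are large proteins that carry heparan sulfate chains, which hold growth factors.

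The libraries held 17274639 to 19410458 counts. Levels are given as CPM, counts relative to the TMM-adjusted size of each library, and ± marks the SD of n = 3 libraries. The transcripts of all 12 endothelial markers were detected. By the test described below 11 of the 12 were called lower in knockouts, against 11.7% of all tested genes. Eng was not called (edgeR adjusted p = 0.991). Without control 2 it was called lower (edgeR adjusted p = 0.00466), where 24.8% of all tested genes were lower. The summed level of the 12 markers was 16297, 7397 and 16243 CPM in controls 1, 2 and 3 and 3930.2 to 4800.5 CPM in knockouts. In such bulk samples fewer cells of a type and less RNA per cell cannot be told apart. Ptprc, which encodes CD45, stood at no more than 0.211 CPM in any library. Control 2 stood apart from the other libraries. Its 12 fibroblast markers summed to 14573 CPM, while controls 1 and 3 had 473 and 1268 CPM and the knockouts 1670.1 to 2900.3 CPM, with Tcf21 at 0 in every library. In knockouts Dcn made up most of that sum, with 1421, 2109.5 and 1343 CPM against 3.95 and 6.96 CPM in controls 1 and 3, whereas Col1a1 had 235, 104 and 110.4 CPM against 214 and 628 CPM. Its 12 pericyte and smooth muscle markers summed to 4301 CPM, while the other controls had 477 and 592 CPM and the knockouts 782 to 1576 CPM. By Xist and the Y-linked Ddx3y, control 2 and knockouts 2 and 3 were from female cells and the other 3 libraries from male cells, so control 2 is the only female control and knockout 1 the only male knockout. An interaction of sex and genotype, in which these lone libraries are assumed to vary like the others, was called for 20.1% of the 13901 genes and for 2 of the 10 genes followed here, which is about the same share. For the 10 genes, Erg and Fli1, results are therefore given with and without control 2 where the call differs. Of the fibroblast markers named above, Dcn was called higher without control 2 (edgeR adjusted p = 7.79e-06) and Col1a1 lower (edgeR adjusted p = 0.0406). With all libraries neither was called (edgeR adjusted p = 0.156 and 0.0830). Erg had 656, 223 and 610 CPM in controls and 70.2, 88.3 and 109 CPM in knockouts (edgeR adjusted p = 0.0137, log2 fold change -2.48 with an SE of 0.44). It lost its call without control 3 or any 1 knockout library (edgeR adjusted p up to 0.0691). Fli1 had 82.9, 64.1 and 92.1 CPM in controls and 57.04, 68.5 and 66.7 CPM in knockouts, which did not pass (edgeR adjusted p = 0.181) except without control 2 (log2 fold change -0.48, adjusted p = 0.00346). The counts are given per gene, not per exon, so they do not show whether exons were deleted. The source of the Erg and Fli1 transcripts that remained in knockouts was not tested.

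Nid2 transcripts fell 8.91-fold in the knockout, Agrn transcripts rose 2.07-fold and Lama5 transcripts rose 1.60-fold, while the other 7 genes did not pass the test. The 6 libraries were compared with edgeR's quasi-likelihood test over all 13901 genes with enough counts, and a gene was called at a Benjamini-Hochberg adjusted p under 0.05. All 10 genes of the scaffold were among those tested; 2 were called higher and 1 lower. Over all tested genes 13.1% were called higher and 11.7% lower, 24.7% in all, so 3 of 10 is near the background. The groups did not overlap for 4 of the 10 genes, against 46.3% of all tested genes. The median log2 fold change of the 10 genes was -0.17, against 0.003 over all tested genes. Without control 2, 2 were called higher and 4 lower, because Hspg2, Lama4 and Lamb1 joined Nid2. That comparison called far more genes in general, 25.5% higher and 24.8% lower, 50.3% in all of 14178 tested. The plot of levels by library shows the fall of Nid2 and the small spread of Lamb1 and Lamc1.

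**Figure D1:**
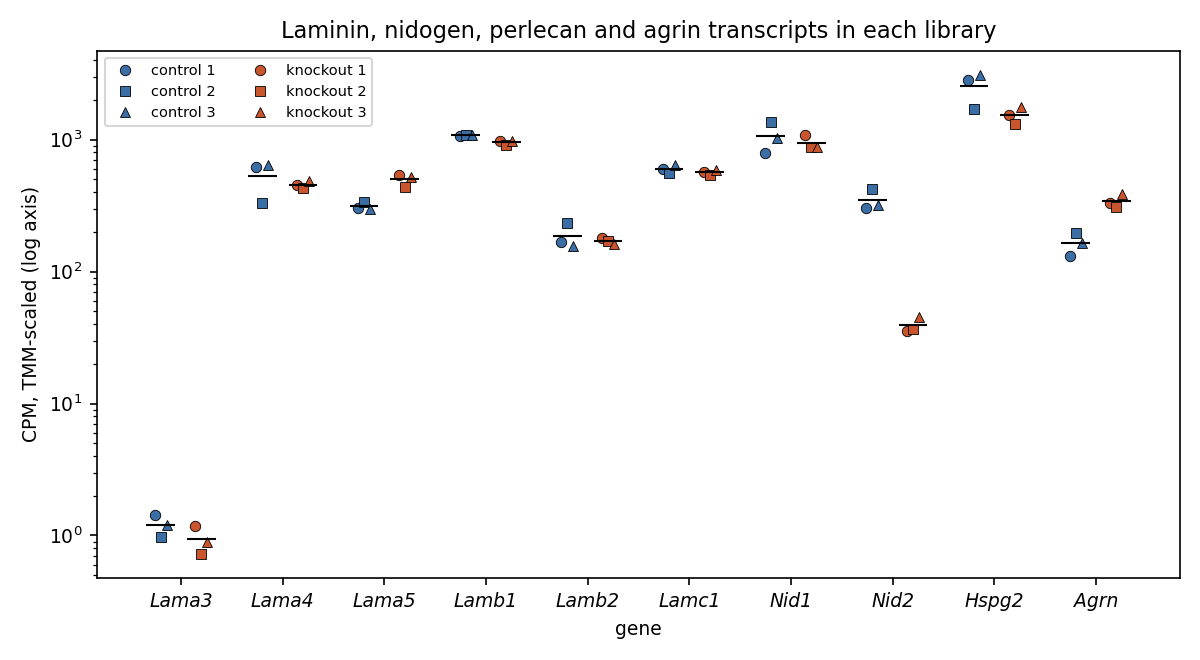
TMM-scaled CPM on a log axis (y) of the 10 genes (x) in each library, with controls in blue, knockouts in orange, circles, squares and triangles for replicates 1, 2 and 3, and a bar at each group mean. Nid2 lies at 303 to 425 CPM in controls and 35.7 to 45.4 CPM in knockouts, and control 2 (blue square) is the lowest control for Lama4 and Hspg2.

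Among the laminin alpha chains, Lama5 rose and Lama4 gave a result that depended on control 2. Lama5, encoding the alpha 5 chain of mature vessel walls, had 301, 337 and 299.9 CPM in controls 1, 2 and 3 and 538, 441 and 520.0 CPM in knockouts 1, 2 and 3. Every knockout library lay above every control, and the spread within each group was small. Its log2 fold change of 0.68 had an SE of 0.10 (edgeR adjusted p = 0.00916), and Lama5 kept its call without any 1 library (log2 fold change 0.62 to 0.76, adjusted p up to 0.0460). Lama4, encoding the alpha 4 chain that is typical of endothelium, had 618, 329 and 641 CPM in controls and 453, 428 and 488 CPM in knockouts. Controls 1 and 3 lay above all knockouts and control 2 below all of them. With all 6 libraries the log2 fold change of Lama4 was -0.21 (95% interval -0.85 to 0.43, edgeR adjusted p = 0.587). Without control 2 it was -0.50 (SE 0.07, 95% interval -0.66 to -0.33, edgeR adjusted p = 0.00110). Control 2 stood 0.94 below the other controls on the log2 scale for Lama4. It was the library with the high fibroblast and mural cell markers, and it had the lowest endothelial marker sum of the controls. The part of these marker differences, or of its sex, in this result was not tested. Lama3, encoding the alpha 3 chain of epithelial basement membranes, was close to the limit of detection, with 27, 18 and 22 counts in controls and 23, 13 and 16 in knockouts. That is 0.725 to 1.42 CPM, and its log2 fold change of -0.36 had a 95% interval of -1.05 to 0.33 (edgeR adjusted p = 0.387).

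The balance of the alpha chains was compared within each library, where the scaling between libraries cancels. Per kilobase of annotated exon, Lama4 had 1.94 and 2.02 times the level of Lama5 in controls 1 and 3, but 0.920 times in control 2. In knockouts 1, 2 and 3 the ratio was 0.794, 0.917 and 0.886. Whether the ratio was above or below 1 depended on the length used: per kilobase of the longest transcript it was 3.87, 1.84 and 4.02 in controls and 1.59, 1.83 and 1.77 in knockouts, and the difference between groups on the log2 scale was the same. Control 2 thus lay just above the highest knockout, and the difference between the groups rested on controls 1 and 3. The mean log2 ratio was 0.62 ± 0.64 (SD, n = 3) in controls and -0.21 ± 0.11 in knockouts, a difference of -0.83 (exact two-sided permutation p = 0.1, the smallest that 3 against 3 libraries allow), and -1.19 without control 2. The alpha 1 gene Lama1, which is not one of the 10, also took a larger share in knockouts. Lama1 held 0.751%, 1.35% and 0.715% of the alpha chain level per kilobase in controls and 10.5%, 14.8% and 10.4% in knockouts. Lama2, whose alpha 2 chain is made by mural and other cells, held 9.05% in control 2 and 0.702% and 1.71% in controls 1 and 3. The annotated exons of Lama4 include many bases outside its longest transcript, and with the longest transcript as the length Lama4 held 57.4% to 78.4% of the alpha chain level in controls and 56.3% to 58.9% in knockouts. The bar plot of alpha chain shares shows the exon-based values.

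**Figure D2:**
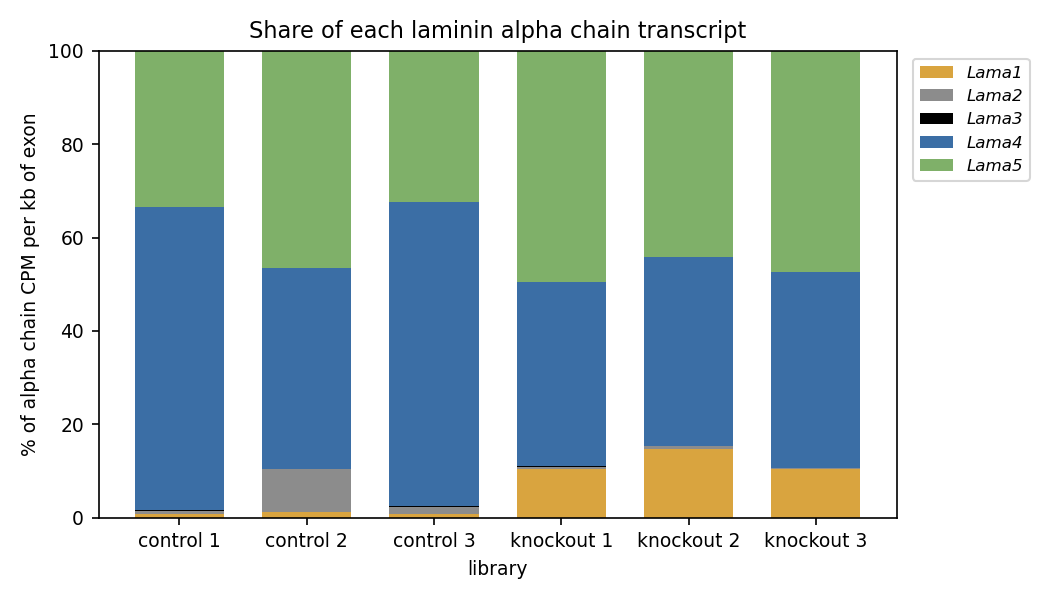
Share of each laminin alpha chain gene (colours) in the summed alpha chain CPM per kilobase of exon (y, %) in each of the 6 libraries (x). Lama4 holds 64.9% and 65.1% in controls 1 and 3 and 39.4% to 42.9% in control 2 and the knockouts; Lama1 holds 10.4% to 14.8% in the knockouts.

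The beta and gamma chain genes stayed close to their control levels. Lamb1, encoding the beta 1 chain, had 1073, 1080.3 and 1086 CPM in controls and 984, 913 and 979 CPM in knockouts. All knockouts lay below all controls, by a small margin, and the log2 fold change was -0.17 (SE 0.08, 95% interval -0.37 to 0.02, edgeR adjusted p = 0.166). Lamb1 was called lower without control 2 (log2 fold change -0.21, edgeR adjusted p = 0.0246) and with DESeq2 (adjusted p = 0.00510). Lamb2, encoding the beta 2 chain, had 167, 232 and 157 CPM in controls and 180.3, 170.4 and 163 CPM in knockouts. Only control 2 was outside the range of 157 to 180.3 CPM, and the log2 fold change of -0.11 had a 95% interval of -0.51 to 0.28 (edgeR adjusted p = 0.641). Lamc1, whose gamma 1 chain is part of nearly all vessel laminins, had 596, 562 and 638 CPM in controls and 569, 538 and 587 CPM in knockouts. The groups overlapped, and the log2 fold change of Lamc1 was -0.08 (95% interval -0.29 to 0.12, edgeR adjusted p = 0.499). Lamb1 held 74.0% to 81.0% of the beta chain level per kilobase in all 6 libraries, and Lamc1 90.9% to 98.5% of the gamma chain level. The ratio of Lamb1 to Lamb2 per kilobase was 2.85 to 4.25 in controls and 3.28 to 3.68 in knockouts, with no difference that passed (exact two-sided permutation p = 0.7).

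The nidogens parted. Nid2, encoding nidogen 2, had 303, 425 and 322 CPM in controls 1, 2 and 3 and 35.7, 36.7 and 45.4 CPM in knockouts 1, 2 and 3. The lowest control was many times the highest knockout. Knockouts kept 11.2% of the control mean, with a log2 fold change of -3.16 (SE 0.18, 95% interval -3.60 to -2.71, edgeR adjusted p = 8.524e-04). Nid2 was called under all 17 alternatives tried, with log2 fold changes of -3.27 to -3.03. Nid1, encoding nidogen 1, had 787, 1351 and 1034 CPM in controls and 1076, 882 and 884 CPM in knockouts. The controls spanned the knockouts, and the log2 fold change of -0.16 had a 95% interval of -0.69 to 0.37 (edgeR adjusted p = 0.628). Without control 2, which had the highest Nid1 level of all libraries, it was 0.02 (95% interval -0.30 to 0.35). Per kilobase of exon, Nid2 stood at 0.417 to 0.516 times Nid1 in controls and at 0.0445 to 0.0690 times in knockouts. The mean log2 ratio fell by 3.02, from -1.15 ± 0.17 to -4.17 ± 0.32 (SD, n = 3 per group, exact two-sided permutation p = 0.1, the smallest possible). Of the exon bases of Nid2, 8.45% lie under exons of Rtraf on the opposite strand, and the labels do not say which library kit, with or without strand, was used for which library. Rtraf had 95.1 to 106 CPM in controls and 85.7 to 93.2 CPM in knockouts (log2 fold change -0.17); whether reads of Rtraf were counted to Nid2 was not tested. The summed endothelial markers also fell in knockouts, and their part in the Nid2 result was not tested.

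Of the heparan sulfate proteoglycans, Agrn rose, and Hspg2 did not pass with all 6 libraries. Agrn, encoding agrin, had 132, 197 and 166 CPM in controls and 328, 309 and 388 CPM in knockouts. Each knockout exceeded each control, and the log2 fold change of 1.05 had an SE of 0.17 (edgeR adjusted p = 0.0105). It was 0.91 to 1.17 when any 1 library was left out, with an edgeR adjusted p of at most 0.0441. Hspg2, encoding perlecan, had 2820.3, 1699 and 3102 CPM in controls and 1529, 1317 and 1753 CPM in knockouts. Control 2 lay below the highest knockout and far below the other controls. With all libraries the log2 fold change of Hspg2 was -0.73 (SE 0.25, 95% interval -1.36 to -0.10) and did not pass after adjustment (edgeR adjusted p = 0.0902). It passed without control 2 (edgeR adjusted p = 5.727e-04, log2 fold change -0.98 with an SE of 0.12) and with DESeq2 (adjusted p = 0.0162). As for Lama4, control 2 was low in Hspg2, by 0.80 on the log2 scale. That library was also high in fibroblast and mural markers and had the lowest endothelial marker sum of the controls. The part of these marker differences in the Hspg2 value was not tested. The ratio of Hspg2 to Agrn per kilobase, a balance added after the values were seen, was 13.9, 5.59 and 12.1 in controls and 3.02, 2.77 and 2.93 in knockouts. The groups did not overlap, and the knockouts were much more alike than the controls.

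**Figure D3:**
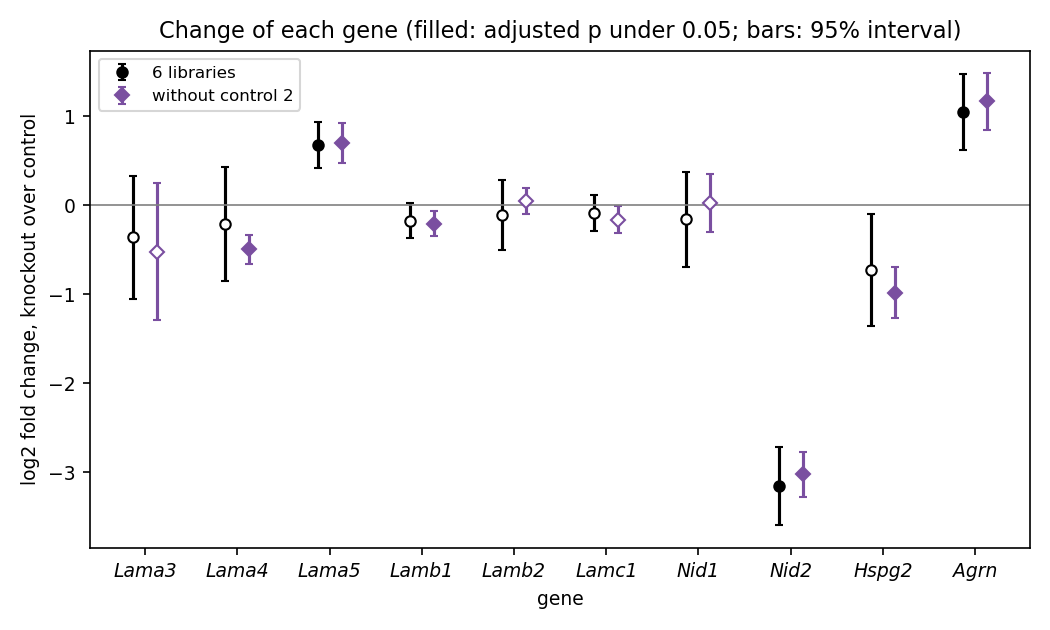
Log2 fold change of knockout over control (y) of the 10 genes (x), with all 6 libraries (black circles) and without control 2 (violet diamonds); bars are 95% intervals and filled symbols have an adjusted p under 0.05. Nid2, Lama5 and Agrn are filled in both, and Lama4, Lamb1 and Hspg2 only without control 2.

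Upstream sequence is shown for Lama5 and Agrn, the called genes with an entry in the RefSeq promoter table (GRCm38.p6), since the deleted factors bind DNA at the ETS core GGAA. Of the 10 genes 6 have an entry there: Lama5, Lamb1, Lamb2, Nid1, Hspg2 and Agrn. The 250 bases before each start were searched for GGAA on both strands, which 93.4% of 32851 promoters hold, with a median of 3 matches, and for the longer CCGGAA, found in 3952 of them, and which contains GGAA. The Lama5 stretch (chr2:180225860-180226109, minus strand) held 4 matches to GGAA. The stretch before the outer of the 2 starts of Agrn (chr4:156197489-156197738, minus strand) held 0, and the stretch before its inner start held 3. Lamb1 and Lamb2 held 4 each, Hspg2 2 and Nid1 7. For Lamb2, Nid1 and the inner start of Agrn, the bases right after the start do not open a GENCODE M21 transcript of the gene. The stretches of Lamb1, Lamb2, Nid1 and Hspg2 reach past the start of the gene in that annotation. The stretch before the inner start of Agrn lies within the gene. CCGGAA was found in Nid1 alone of the 6, once, and 30 bases around it are shown as well (chr13:13437423-13437452, plus strand), although the Nid1 level did not differ by the test. A match describes the letters in the window and says nothing about binding. Sequences run 5′ to 3′ on the strand of the gene, and capitals mark GGAA on either strand, or CCGGAA in Nid1.
Lama5: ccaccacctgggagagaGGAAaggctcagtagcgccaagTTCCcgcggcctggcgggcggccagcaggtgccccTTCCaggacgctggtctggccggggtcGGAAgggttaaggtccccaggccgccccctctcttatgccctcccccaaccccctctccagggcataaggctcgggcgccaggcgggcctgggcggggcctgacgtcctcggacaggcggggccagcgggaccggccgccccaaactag
Agrn: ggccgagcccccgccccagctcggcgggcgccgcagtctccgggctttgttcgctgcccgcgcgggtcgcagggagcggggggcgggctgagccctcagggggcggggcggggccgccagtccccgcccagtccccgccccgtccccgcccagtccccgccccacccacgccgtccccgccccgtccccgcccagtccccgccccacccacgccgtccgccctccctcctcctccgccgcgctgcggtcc
Nid1: gtcgggttggatCCGGAAtgctgggaacca

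Levels can be compared between genes per kilobase of exon. In controls the order by mean was Hspg2 (178 CPM per kilobase), Nid1 (152), Lamb1 (109), Lamc1 (72.4), Nid2 (67.6), Lama4 (43.9), Lamb2 (30.5), Lama5 (27.5), Agrn (17.8) and Lama3 (0.112). Of neighbours in this order, Nid1 lay above Lamb1, Lamb1 above Lamc1, Nid2 above Lama4, Lama5 above Agrn, and Agrn above Lama3 with no overlap of their libraries, whereas Hspg2 and Nid1, Lamc1 and Nid2, Lama4 and Lamb2, and Lamb2 and Lama5 overlapped. In knockouts the order by mean was Nid1 (136 CPM per kilobase), Hspg2 (107), Lamb1 (96.7), Lamc1 (68.3), Lama5 (43.9), Lama4 (37.8), Agrn (36.8), Lamb2 (28.2), Nid2 (7.59) and Lama3 (0.0868). Here Hspg2 and Lamb1, Lama5 and Lama4, and Lama4 and Agrn overlapped and the other neighbours did not, and Nid2 had dropped from the middle of the order to a place above Lama3 alone. The length used for Lama4 and Lamb1 matters for this order, because their longest transcripts are 6046 and 5784 bases and their annotated exons cover 12068 and 9917 bases; with the longest transcripts their control means were 87.5 and 187 CPM per kilobase.

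On GRCm38 the 3 called genes lie as follows, each annotated as protein-coding by GENCODE M21: Nid2 (ENSMUSG00000021806) on chromosome 14, 19751265 to 19811787, Lama5 (ENSMUSG00000015647) on chromosome 2, 180176373 to 180225859, and Agrn (ENSMUSG00000041936) on chromosome 4, 156165290 to 156197488. Of the other 7, Hspg2 (ENSMUSG00000028763) lies on chromosome 4, 137468769 to 137570630, Lama4 (ENSMUSG00000019846) on chromosome 10, 38965515 to 39110188, and Nid1 (ENSMUSG00000005397) on chromosome 13, 13437551 to 13512269. Lamb1 (ENSMUSG00000002900) lies on chromosome 12, 31265234 to 31329644, Lamb2 (ENSMUSG00000052911) on chromosome 9, 108479736 to 108490530, and Lamc1 (ENSMUSG00000026478) on chromosome 1, 153218922 to 153332786. Lama3 (ENSMUSG00000024421) lies on chromosome 18, 12333819 to 12583013. Besides Nid2, exons of antisense genes cover 2.06% of the Nid1 and 1.83% of the Lama3 exon bases, and these antisense genes had 2 and 0 counts over all 6 libraries. Exons of the other 7 genes are not shared with any annotated gene.

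The other genes of the basement membrane fell more often than they rose. Of a list of 23 (other laminin chains, collagen IV chains, linkers and enzymes of the sheet) 20 were tested, 8 were called lower and 3 higher, with a median log2 fold change of -1.04, against 11.7% lower and 13.1% higher over all tested genes. Col15a1, a collagen that bridges basement membrane and stroma, had a log2 fold change of -3.89 (SE 0.54), or -3.27 without control 2, where it stood at 2507 CPM, compared to 904 and 952 CPM in the remaining controls. Pxdn, the peroxidase that crosslinks collagen IV, fell from 1265 ± 172 to 382 ± 35.1 CPM (edgeR adjusted p = 0.00175, log2 fold change -1.73 with an SE of 0.14). Col4a1 and Col4a2, the collagen IV chains of most vessels, fell together, from 7524 ± 615 to 4844 ± 174 CPM (-0.64 on the log2 scale, SE 0.13) and from 5125 ± 675 to 2767 ± 163 CPM (-0.89 on the log2 scale, SE 0.15). Col4a1 lost its call without any 1 library other than control 2 (edgeR adjusted p up to 0.115), and Col4a2 without knockout 1 or 2 (up to 0.0652). Lama1, the alpha 1 chain gene named above, rose from 5.74, 8.28 and 5.64 CPM in controls to 96.7, 125 and 97.4 CPM in knockouts. The log2 fold change of 4.02 had an SE of 0.21 (edgeR adjusted p = 6.445e-04), and Lama1 kept its call without any 1 library. Hmcn1, encoding the large matrix protein hemicentin 1, rose from 5.73 ± 3.39 to 30.3 ± 5.05 CPM, but lost its call without control 1 or any 1 knockout library (edgeR adjusted p up to 0.0673). Without control 2, 9 of 21 tested genes of this list were lower and 4 higher, against 24.8% and 25.5% over all genes. Leaving out another library instead gave 5 to 6 lower and 2 to 3 higher. Those comparisons called 1351 to 1788 of all 14218 to 14309 tested genes, both directions together.

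Receptors of these proteins changed in both directions. Of 18 genes (integrin subunits, dystroglycan, syndecans and others), all of which were tested, 4 were called lower and 2 higher, with a median log2 fold change of 0.03; over all tested genes 11.7% were lower and 13.1% higher. Itga6, the integrin alpha 6 subunit of the main laminin receptors, fell from 452, 267 and 486 CPM in controls to 76.6, 63.5 and 90.4 CPM in knockouts (edgeR adjusted p = 0.00393, log2 fold change -2.39 with an SE of 0.27). Itgb3, the integrin beta 3 subunit, which pairs with alpha V, fell from 433 ± 18.2 to 132 ± 14.9 CPM (edgeR adjusted p = 9.906e-04, log2 fold change -1.71 with an SE of 0.10). Sdc4, the heparan sulfate carrier syndecan 4, rose from 166 ± 72.1 to 567 ± 57.2 CPM (1.77 on the log2 scale, SE 0.31). Bcam, a receptor of the laminin alpha 5 chain, rose from 76.0 ± 20.1 to 152 ± 10.4 CPM (1.00 on the log2 scale, SE 0.21). Sdc4 lost its call without knockout 1 or 2 (edgeR adjusted p up to 0.0574) and Bcam without control 3 or any 1 knockout library (up to 0.0831). The number called lower was 4 whichever library was left out. The number called higher was 7 without control 2, where 25.5% of all genes were called higher and 24.8% lower. It was 0 to 2 without another library, where 1351 to 1788 of all 14218 to 14309 tested genes were called.

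Enzymes that build or trim heparan sulfate, the chain on perlecan and agrin, or the laminin-binding glycan of dystroglycan, were called higher in 5 and lower in 1 of 29 tested of 30, with a median log2 fold change of 0.12, while 24.7% of all tested genes were called. The number of calls is thus near that background. Sulf1, a secreted sulfatase that removes sulfate groups from heparan sulfate, rose from 102, 359 and 90.3 CPM in controls to 1850, 2249 and 1842 CPM in knockouts (edgeR adjusted p = 0.0138, log2 fold change 3.43 with an SE of 0.62). Without control 2, the highest control, the log2 fold change of Sulf1 was 4.33, and without knockout 1 or 2 it lost its call (edgeR adjusted p up to 0.0571). Hs2st1, which adds a sulfate to the uronic acids of the chain, rose from 92.1 ± 6.44 to 147 ± 11.4 CPM (edgeR adjusted p = 0.00533, log2 fold change 0.67 with an SE of 0.08). B4galt7, which adds a sugar of the linker between protein and chain, fell from 36.3 ± 3.65 to 27.2 ± 0.751 CPM (edgeR adjusted p = 0.0256, log2 fold change -0.42 with an SE of 0.09). It lost its call without control 1 or any 1 knockout library (edgeR adjusted p up to 0.0998) and with scaling by library size alone. Without control 2 this list had 14 genes higher and 2 lower (25.5% and 24.8% over all genes). Without any 1 other library it had 2 to 4 higher and 0 to 1 lower, where 1351 to 1788 of all 14218 to 14309 tested genes were called.

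**Figure D4:**
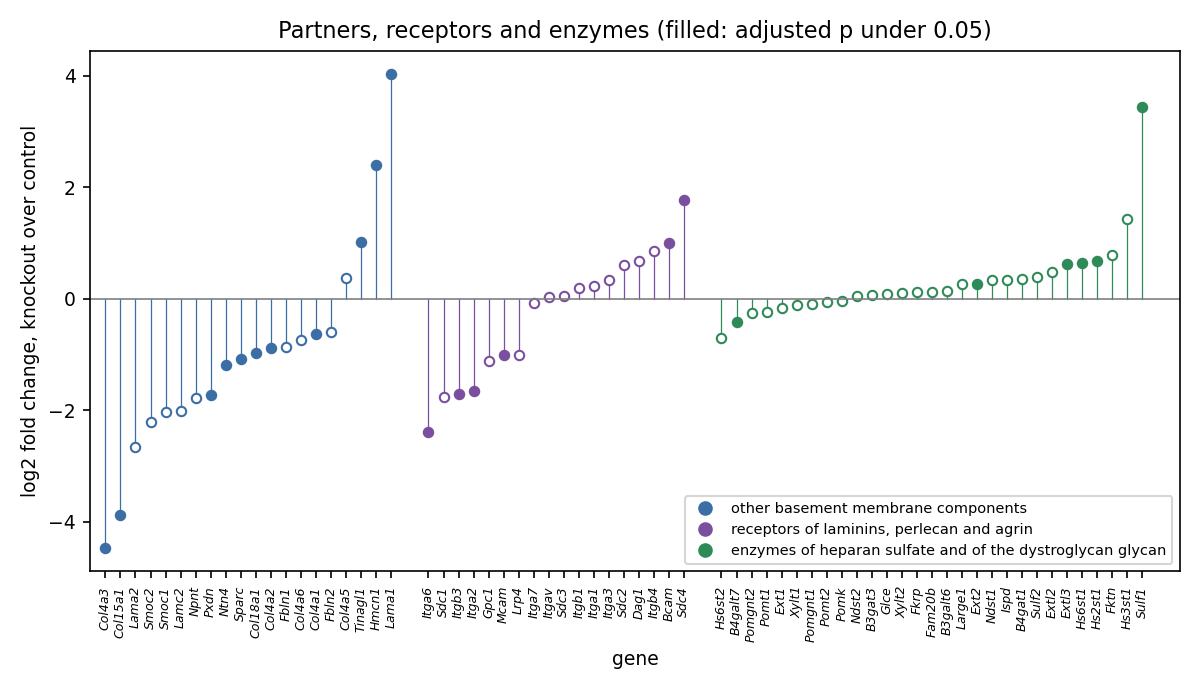
Log2 fold change of knockout over control (y) for each tested gene (x) of the lists of other basement membrane components (blue), receptors (violet) and heparan sulfate or dystroglycan enzymes (green), sorted within each list; filled points have an adjusted p under 0.05. Lama1 (4.02) and Sulf1 (3.43) stand highest, and 8 of the 11 filled blue points lie below 0.

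The genes whose profile over the 6 libraries was most like that of Nid2, among 9270 others with a mean of at least 10 CPM, were Csgalnact1, Cd276, Mmp15, Ccbe1 and Kcnj2. Their root mean square difference from Nid2 in centred log2 CPM was 0.18 to 0.27. For Agrn they were Zic5, Tnfrsf1b, Gm23935, Igfbp7 and Gadd45g, with a difference of 0.10 to 0.12. Csgalnact1 is an enzyme of chondroitin sulfate synthesis, Mmp15 a membrane-bound metalloproteinase and Igfbp7 a secreted matrix protein of vessels. Without control 2, 0 of the 5 genes for Nid2 and 2 of the 5 for Agrn (Zic5 and Gm23935) were still among the closest 5.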

How the data were processed

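RNA of sorted brain endothelial cells was sequenced as polyadenylated libraries prepared with one of a pair of TruSeq kits, RNA v2 or Stranded mRNA, per the labels' protocols, which do not say which kit served which library. The authors deposited raw whole-number counts per Ensembl gene, used here as deposited. FastQC 0.11.5, STAR 2.7.6a and the build GRCm38 are named in the submitters' processing notes; the program that counted reads, its annotation and its strand setting are not given in these sources. Symbols, positions and exon lengths came from GENCODE M21 (GRCm38), which matched 52489 of 52636 identifiers.

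Groups and replicate numbers came from the sample titles. Genes were filtered with filterByExpr, scaled with TMM and compared with edgeR 4.0.16 in R 4.3.3 (glmQLFTest, two-sided, no covariate, Benjamini-Hochberg adjustment over all 13901 tested genes; SE is the log2 fold change over the square root of F). Ratios within a library used counts per kilobase of annotated exon and exact permutation tests (scipy 1.17.1). The depth of 17274639 to 19410458 counts leaves wide relative error only for Lama3; counts carry no molecular identifiers. The fit was tested on simulated data.

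The 10 genes, the lists and the tests were chosen with earlier results of these data known. Named from each list were, of the called genes at a mean of at least 5 CPM, the 2 that rose most and the 2 that fell most by log2 fold change, and Col4a1 and Col4a2; most alike genes were taken for the called gene of the 10 with the largest change each way, after adding 0.5 to the CPM. Alternatives were other scaling (RLE, upper quartile, library size only), DESeq2 1.42.0, limma 3.58.1 voom, other filters (no filter, or 1 CPM in 3 libraries), a block for the replicate number, the sex of the cells as a term, an adjusted p under 0.01, a test against a 1.5-fold change, and each library left out. An interaction of sex and genotype and the ratios of Hspg2 to Agrn and Lamb1 to Lamb2 were added after seeing the data.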

Additional observations from a re-analysis of the deposited data

Results flagged for a closer look

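Xist and Ddx3y divide the libraries into male cells (controls 1 and 3, knockout 1) and female cells (control 2, knockouts 2 and 3). For 3 of the 10 genes the knockouts lay on opposite sides of the controls in male and in female cells, without overlap. The share of all tested genes with this pattern was not counted, so 3 of 10 cannot be read against a background. For Lama4 the log2 difference of knockout and control was -0.47 in male and 0.48 in female cells, and the effects differed by 0.95. For Lamb2 it was 0.16 and -0.48, and the effects differed by -0.63. For Nid1 it was 0.24 and -0.61, and the effects differed by -0.85. No p is given for these differences, since the female control and the male knockout are 1 library each. An interaction fit that assumes these lone libraries to vary like the others called 2789 of 13901 genes (20.1%), with Lama4 and Lamb2 but not Nid1 among them, so 2 of 10 is about the background. Control 2 is also the library with 14573 CPM of fibroblast markers and, among controls, the lowest endothelial marker sum. The sex of the cells and that library cannot be told apart. For Nid2, Lama5 and Agrn the values had the same direction in male and female cells, with log2 differences of -3.13 and -3.37, 0.84 and 0.51, and 1.14 and 0.82.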

How the results depend on the processing

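Nid2 kept its call and direction under all 17 alternatives. Lama5 and Agrn stayed higher under all 17, and each lost its call under 2: Lama5 with the replicate number as a block (edgeR adjusted p = 0.0513), Agrn at an adjusted p under 0.01, and both in the test against a 1.5-fold change (adjusted p = 0.432 and 0.0719). The number of the 10 genes called higher was therefore 1 with the replicate block, 1 at an adjusted p under 0.01 and 0 against a 1.5-fold change, and 2 otherwise. The number called lower was 3 with DESeq2, 1 to 4 when a library was left out (4 without control 2) and 1 otherwise. Over all genes, 3437 calls became 1844 with the replicate block, 1256 at an adjusted p under 0.01, 982 against a 1.5-fold change, and 1351 to 7128 when a library was left out, 7128 being the count without control 2. With library size only, 2501 calls were higher and 1268 lower (66.4% higher, against 52.8% after TMM), and the median of all genes moved from 0.003 to 0.09 (log2). Whether the replicate numbers pair the libraries was not settled. Deviations of same-numbered libraries from their group means correlated at -0.14, 0.24 and 0.32, and not every library correlated best with its own number. Deviations from a mean of 3 libraries depend on each other, so these correlations cannot decide it. With the sex term the log2 fold change of Lama4 was 0.002 and that of Hspg2 -0.55, neither of them called. The change of the Lama4 to Lama5 balance was -1.19 to -0.63 and that of the Nid2 to Nid1 balance -3.17 to -2.86 when a library was left out; a paired sign-flip test of 3 pairs gave an exact p of 0.25 for each, the smallest possible. Depth limits only Lama3 among the 10.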
